A study of Saccharomyces cerevisiae with 144 samples.

Results

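The genes described here are 10 genes of the yeast vacuolar H+-ATPase (V-ATPase), chosen by their identifiers out of the 6465 gene regions counted in this series. They are 8 subunit genes, VMA1, VMA2, VMA4, VMA5 and VMA8 of the V1 sector and VMA3, VMA6 and VPH1 of the V0 sector, and the genes of the assembly factors VMA21 and VMA22. VMA22 was included because it falls strongly in the strain whose BDF1 copy lacks the ET domain, so that its values in that strain are given as a description, without a test. The series holds SLAM-seq libraries of Saccharomyces cerevisiae, in which cells were treated with IAA (an auxin) or with DMSO as the control for 25 min and then labeled with 4-thiouracil for 4 min. Newly made RNA is read as T>C conversions, and a read with at least 2 of them is called a T>C read.

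All 23 strains carry the auxin receptor OsTIR1 under the GPD1 promoter and auxin-inducible degron (AID) tags on endogenous Bdf1 and Bdf2, the bromodomain and extraterminal (BET) proteins of yeast, so that IAA triggers the degradation of both proteins. Bdf1/2-AID has no further copy of BDF1. The other strains have an additional copy, which was unmodified in WT and a variant in the other 21. The variants are deletions (ΔBD1, ΔBD2, ΔBD1/2, ΔNPS, ΔCPS, ΔNPS/CPS, ΔB, ΔBID, ΔB/BID, ΔET and ΔIDRs), mutations (mBD1, mBD2, mBD1/2, mNPS, mCPS and mNPS/CPS), a phosphomimetic form (pNPS/CPS), and ET domains mutated at 1, 2 or 4 acidic residues (mET(1), mET(2) and mET(4)). BD1 and BD2 are the bromodomains, which bind acetylated histones, NPS and CPS the N- and C-terminal phosphorylation sites, B a conserved motif, BID the basic interaction domain, ET the extraterminal domain, and IDRs the disordered regions. Each strain is a single line that stands for its genotype. There were 6 WT libraries (replicates A–F) per treatment and 3 (replicates A–C) for every other strain, 144 in all.

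The V-ATPase is a rotary proton pump that acidifies the vacuole, the yeast counterpart of the lysosome, and other compartments of the secretory and endocytic pathways. Its peripheral V1 sector hydrolyzes ATP, and its membrane V0 sector carries protons through a ring of proteolipid subunits. V0 is built in the endoplasmic reticulum with the help of dedicated assembly factors that are not part of the finished pump. Yeast lacking the pump grow poorly at neutral pH and in high calcium. Bdf1 and Bdf2 bind the general transcription factor TFIID and acetylated histone H4.

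Between 4089393 and 21384793 reads were counted per library with a median of 8054872. T>C reads made up 0.739% to 5.597% of them. These shares differed between strains. In IAA and DMSO they were 1.496% to 1.56% and 2.94% to 3.23% in Bdf1/2-AID, 1.21% to 1.59% and 2.08% to 2.87% in ΔET, 1.73% to 1.99% and 2.80% to 3.14% in mET(4), and 2.77% to 3.27% and 3.32% to 4.31% in WT. As a check of the strains, BDF1 itself had 130 to 140 CPM (reads per 1000000 reads of the library) in the IAA libraries of Bdf1/2-AID and 153 to 480 CPM in those of the other strains. In DMSO it had 96.3 to 114 CPM in Bdf1/2-AID and 156 to 412.9 CPM elsewhere. The libraries also differed in composition. WT replicates A–C stand apart from D–F, and DMSO replicate A of mET(4) stands apart from its replicates B and C. Bdf1/2-AID, ΔET, mNPS/CPS and ΔCPS share 1 run of library numbers, and WT and mET(4) share another. All values are scaled to the reads of the library, so that a change common to all genes, fewer cells with a transcript and less RNA per cell cannot be told apart. Changes are therefore also given relative to the median gene of the comparison, or with trimmed mean (TMM) scaling, which sets a gene against the bulk of genes.

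VMA22 (YHR060W) encodes a peripheral membrane protein of the endoplasmic reticulum that works with Vma12 (encoded by VPH2) in V0 assembly. Its counted region is chrVIII:220725-221520 on the plus strand (R64). The region begins inside that of FYV4 (YHR059W), which lies at positions 220108 to 220750 on the same strand, and the 2 regions share 26 bases. The start of VMA22 is printed because reads of these 2 genes cannot be told apart there. The window runs from 250 bases before the region to 50 bases into it, and capitals mark the 26 shared bases, which hold 3 Ts.

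VMA22 start, chrVIII:220475-220774, plus strand: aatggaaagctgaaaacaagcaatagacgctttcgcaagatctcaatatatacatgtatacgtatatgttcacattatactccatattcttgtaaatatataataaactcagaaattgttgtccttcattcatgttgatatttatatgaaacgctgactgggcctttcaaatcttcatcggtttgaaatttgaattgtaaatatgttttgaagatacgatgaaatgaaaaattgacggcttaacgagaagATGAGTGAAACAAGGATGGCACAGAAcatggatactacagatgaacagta

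The reads counted for FYV4 were 0.836 to 1.26 times those counted for VMA22 over the 144 libraries (median 1.04). A read counted for VMA22 covered 31.6 to 33.6 Ts of its region (median 32.9), against 33 Ts in the first 150 bases of the region, 23 in the last 150 and 17 to 50 in any window of that length. A read counted for FYV4 covered only 2.05 to 11.2 Ts of its own region (median 7.49), although its last 150 bases hold 45 Ts. The reads counted for FYV4 thus covered fewer Ts of its region than any window of 150 bases in it holds (33 to 62). The number for VMA22 lies within the range of its windows and close to the 33 Ts of its first 150 bases. In the WT A–C libraries, a read counted for FYV4 covered 2.05 to 3.02 Ts, against 3 Ts in the shared bases. FYV4 had 0.845 to 0.886 times the reads of VMA22 there. The paper describes 3′ mRNA sequencing libraries, and which transcript these reads came from was not tested. FYV4 was also the gene with the pattern most like that of VMA22, with a Pearson r of 0.984 for log2 mean total CPM over the 46 groups of strain and treatment (0.983 over the 44 groups without ΔET). Values below are those counted for VMA22, and how they divide between the 2 transcripts was not tested. VMA22 also overlaps GIC1 on the opposite strand by 237 bases, and whether the counting used strand is not given in the sources used here.

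After IAA treatment, VMA22 was lowest in ΔET and next lowest in Bdf1/2-AID. The ΔET libraries held 4, 4 and 4 T>C reads of VMA22 in IAA and 51, 16 and 44 in DMSO, which is 0.363, 0.325 and 0.275 T>C CPM (T>C reads per 1000000 reads of the library) in IAA and 3.07, 1.98 and 3.12 T>C CPM in DMSO. Every IAA library thus lay below every DMSO library, as was so for 66.0% of all genes, and each IAA value rests on 4 reads. The fitted log2 change was −3.08, given without a test because the gene was chosen for this fall. In Bdf1/2-AID, there were 5, 9 and 6 T>C reads in IAA and 70, 62 and 48 in DMSO, or 0.792, 0.798 and 0.665 T>C CPM in IAA and 6.69, 5.48 and 8.05 T>C CPM in DMSO, again without overlap (81.6% of all genes). This is an 8.67-fold fall (log2 −3.12, SE 0.34, adjusted p = 2.35e-17 by the quasi-likelihood test of edgeR, adjusted after Benjamini-Hochberg), in a comparison in which 84.3% of the 5014 genes tested were lower. In mET(4), with 23, 13 and 27 T>C reads in IAA and 82, 85 and 142 in DMSO, the levels were 2.72, 1.75 and 2.80 T>C CPM in IAA and 7.89, 10.3 and 14.4 T>C CPM in DMSO. The groups did not overlap (53.6% of all genes), and VMA22 fell by 2.15 on the log2 scale in mET(4) (SE 0.34, adjusted p = 4.36e-05 by edgeR), where 42.8% of all genes were lower. In WT, the levels were 16.7, 20.2, 13.2, 7.98, 4.42 and 3.48 T>C CPM in IAA and 18.5, 16.9, 18.6, 9.82, 9.70 and 6.40 in DMSO. These overlapped over the 6 replicates, of which A–C had the higher levels in both treatments, and the change of −0.27 did not pass the test (adjusted p = 0.670 by edgeR). Between libraries of the same letter, 5 of 6 were lower in IAA, and with the letter as a block the change was −0.34 (adjusted p = 0.0681 by edgeR).

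**Figure D1:**
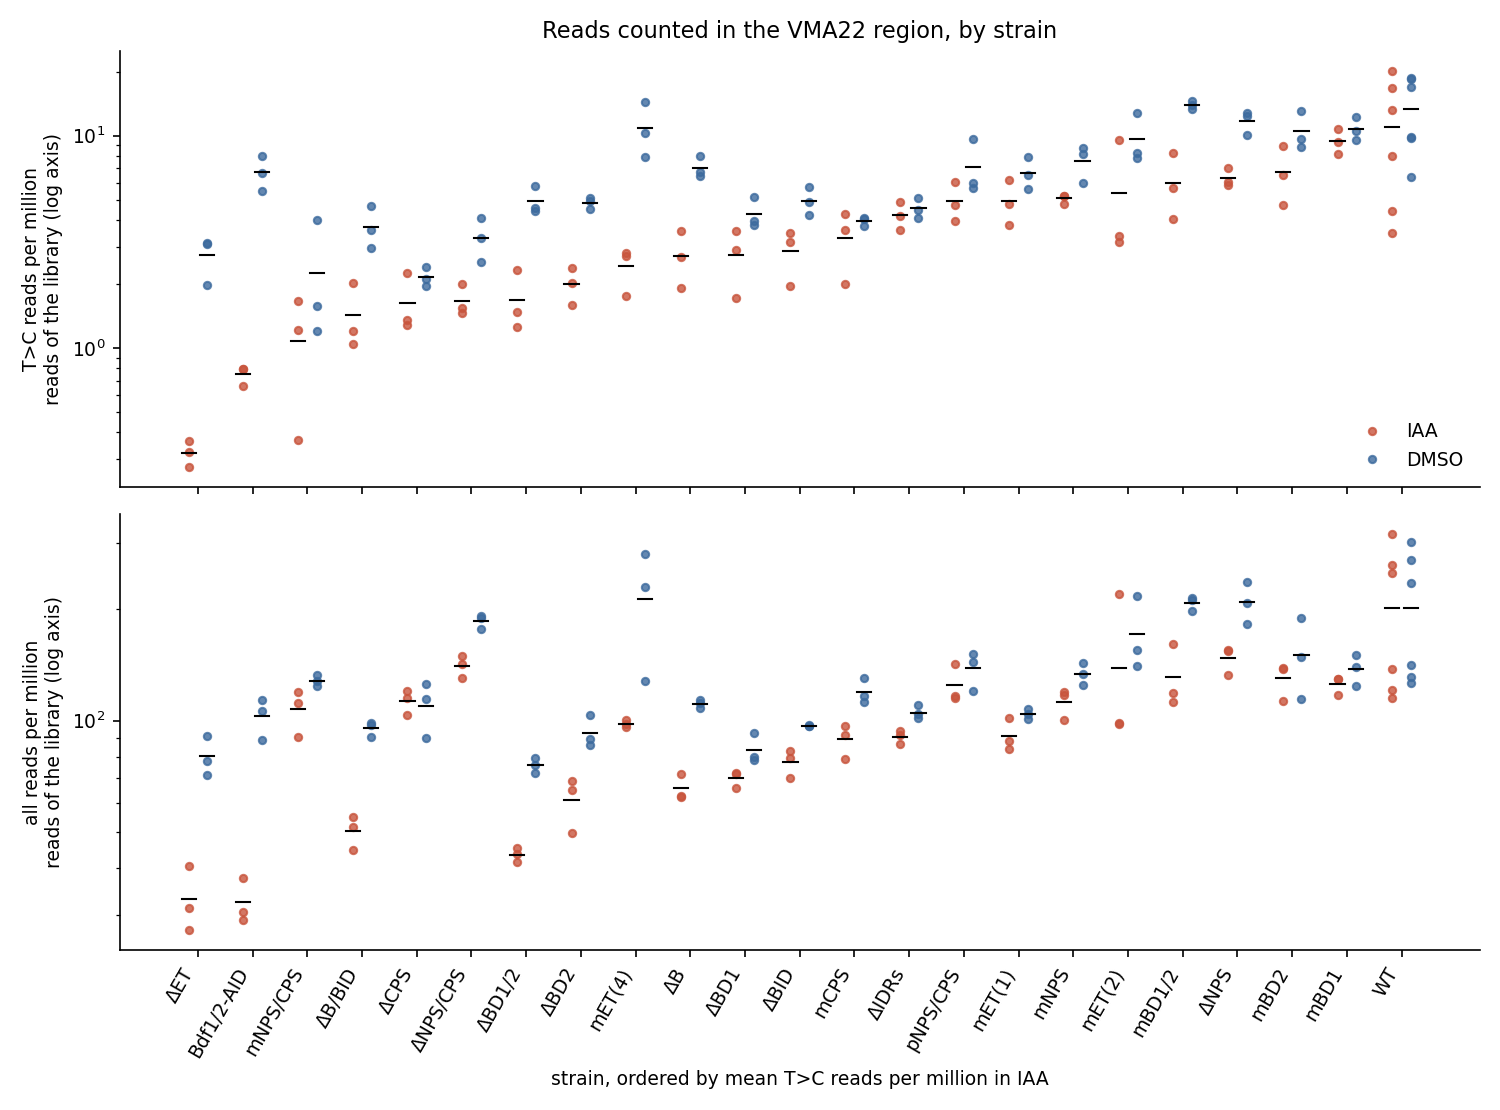
Level of VMA22 in each library of the 23 strains, as T>C CPM (top) and as total CPM (bottom), on log axes. Points are libraries, IAA is to the left of DMSO for each strain, black bars are means, and strains are ordered by their mean T>C level in IAA, in which ΔET (0.321 T>C CPM) and Bdf1/2-AID (0.752 T>C CPM) have the lowest values.

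Over all strains, the mean T>C level of VMA22 in IAA ran from 0.321 ± 0.044 T>C CPM in ΔET to 11.01 ± 6.81 in WT (SD, n = 3 and 6). The lowest strains after ΔET were Bdf1/2-AID (0.752 ± 0.076), mNPS/CPS (1.08 ± 0.655), ΔB/BID (1.43), ΔCPS (1.63), ΔNPS/CPS (1.67), ΔBD1/2 (1.68), ΔBD2 (1.99) and mET(4) (2.42). ΔB (2.71), ΔBD1 (2.73), ΔBID (2.86), mCPS (3.28), ΔIDRs (4.21), pNPS/CPS (4.90), mET(1) (4.91), mNPS (5.06), mET(2) (5.37), mBD1/2 (6.004), ΔNPS (6.32), mBD2 (6.74) and mBD1 (9.41) followed. Of the 22 steps between neighbors in this order, only that from ΔET to Bdf1/2-AID had no overlap of libraries, and in DMSO no step did. That step is a description and no support, since VMA22 was chosen for its fall in ΔET and its values there rest on few reads. In mET(2), 1 IAA library was high, at 9.58 T>C CPM. WT had the largest SD of these groups, with 13.2 to 20.2 T>C CPM in IAA replicates A–C and 3.48 to 7.98 in D–F.

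The standing level of VMA22, measured from all reads, was about equal in ΔET and Bdf1/2-AID after IAA treatment. It was 31.3, 40.6 and 27.3 CPM in IAA and 91.1, 71.5 and 77.8 CPM in DMSO in ΔET, and 30.6, 37.8 and 29.0 CPM in IAA and 88.7, 113 and 106 CPM in DMSO in Bdf1/2-AID. Neither strain had an overlap between treatments, as was so for 62.8% of all genes in ΔET and 72.5% in Bdf1/2-AID. The log2 change in Bdf1/2-AID was −1.65 (adjusted p = 4.01e-11 by edgeR), and that in ΔET, given without a test, −1.28. In mET(4), VMA22 had 96.2, 100.1 and 97.8 CPM in IAA and 128, 228 and 281.1 CPM in DMSO, where the lowest value is replicate A. The treatments did not overlap (46.7% of all genes). The change of −1.12 (adjusted p = 0.0151 by edgeR) did not pass without any single IAA replicate (adjusted p = 0.0514 to 0.0718) and was −1.38 without DMSO replicate A (adjusted p = 0.00152). The order of strains by total CPM in IAA began with Bdf1/2-AID (32.5 ± 4.68), ΔET (33.1 ± 6.84), ΔBD1/2 (43.5), ΔB/BID (50.5) and ΔBD2 (61.3), and WT had 200.5 ± 86.6 CPM (SD, n = 6). Only the step from ΔET to ΔBD1/2 had no overlap, which is again a description because it holds the ΔET values.

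The T>C share of a gene's own reads needs no scaling between libraries. For VMA22 in ΔET it was 1.16%, 0.80% and 1.01% in IAA and 3.37%, 2.77% and 4.01% in DMSO. In Bdf1/2-AID it was 2.59%, 2.11% and 2.29% in IAA and 7.54%, 4.84% and 7.61% in DMSO, and in mET(4) 2.83%, 1.75% and 2.86% in IAA and 6.17%, 4.49% and 5.13% in DMSO. All 3 strains had lower shares in every IAA library than in any DMSO library, which held for 34.5% of all genes in ΔET, 50.6% in Bdf1/2-AID and 29.7% in mET(4). The median share of VMA22 over the DMSO libraries, 5.48%, was the highest of the 10 genes, with that of VPH1 (5.10%) next and that of VMA2 (1.17%) the lowest. VMA22 can also be set against the other 9 genes alone. Per 1000 total reads of those genes, ΔET had 15.3 ± 2.66 VMA22 reads in IAA and 34.1 ± 3.13 in DMSO, and Bdf1/2-AID had 16.99 ± 2.51 in IAA and 46.6 ± 6.10 in DMSO (SD, n = 3 each). Per 1000 T>C reads, ΔET had 17.9 ± 3.87 in IAA and 68.5 ± 11.9 in DMSO, and Bdf1/2-AID had 48.8 ± 3.09 in IAA and 141 ± 42.7 in DMSO.

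The other members were then examined in Bdf1/2-AID, in which no further BDF1 copy takes over after depletion. T>C reads of all 10 genes were lower in IAA than in DMSO, against a background of 84.3% lower and 0.319% higher over all genes, so that the count is near the background. Their median log2 change was −1.87, against −1.86 for all genes. With TMM scaling, VMA22 alone passed (log2 −1.42, adjusted p = 0.000844), where 7.34% of genes were lower. VMA22 lay 1.26 below the median gene on the log2 scale, and the other 9 lay between 0.58 below and 0.76 above it. The V1 and V0 genes thus fell about as much as most genes, while VMA22 fell further.

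Among the V1 genes, VMA1 (YDL185W, the catalytic A subunit, which is spliced from a precursor that also holds the endonuclease PI-SceI) had 2.06, 2.31 and 1.99 T>C CPM in IAA and 4.68, 5.84 and 4.70 in DMSO. Its fall of 1.26 on the log2 scale (SE 0.29, adjusted p = 3.15e-05 by edgeR) was smaller than that of the median gene by 0.60. VMA2 (YBR127C, the B subunit, which forms the ATP-binding hexamer with A) had 1.58, 0.7098 and 1.11 T>C CPM in IAA and 4.39, 5.22 and 4.03 in DMSO, a log2 change of −2.10 (adjusted p = 7.56e-09 by edgeR). VMA4 (YOR332W, the E subunit of the peripheral stalks) had 1.43, 0.798 and 0.554 T>C CPM in IAA and 5.25, 4.07 and 4.19 in DMSO (log2 −2.36). VMA5 (YKL080W, the C subunit, which leaves the complex when the pump comes apart) had 2.06, 0.798 and 0.997 in IAA and 2.29, 3.18 and 2.85 in DMSO (log2 −1.21, adjusted p = 0.00204 by edgeR). The highest IAA library of VMA5 came close to its lowest DMSO library without overlap. VMA8 (YEL051W, the D subunit of the rotor) was counted with only 3, 5 and 3 T>C reads in IAA, or 0.475, 0.444 and 0.332 T>C CPM, against 2.87, 1.95 and 2.01 in DMSO (log2 −2.43, adjusted p = 3.20e-06 by edgeR).

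Among the V0 genes, VMA3 (YEL027W, the main proteolipid c of the proton-carrying ring) had 3.49, 4.79 and 3.32 T>C CPM in IAA and 14.04, 12.7 and 9.56 in DMSO, a fall of 1.64 on the log2 scale (SE 0.21). VMA6 (YLR447C, subunit d, which couples the rotor to the ring) had 0.950, 1.86 and 1.77 in IAA and 4.87, 3.01 and 4.70 in DMSO (log2 −1.36). VPH1 (YOR270C, the a subunit of the vacuolar pump) had 3.01, 2.13 and 2.10 in IAA and 5.54, 5.04 and 4.36 in DMSO. Its fall of 1.09 (adjusted p = 0.000215 by edgeR) was the smallest of the 10 and lay 0.76 above the median gene. VMA21 (YGR105W), the other assembly factor, which escorts V0 out of the endoplasmic reticulum, had 1.58, 1.42 and 2.10 in IAA and 10.9, 8.40 and 6.04 in DMSO (log2 −2.34, SE 0.27), 0.48 below the median gene.

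The 13 other V-ATPase genes (VMA7, VMA10, VMA13, STV1, VMA11, VMA16, VMA9, the assembly factors VOA1, VPH2 and PKR1, and RAV1, RAV2 and SKP1 of the RAVE complex, which reassembles the pump) were counted as a list. All 11 of those with enough T>C reads (RAV1 and RAV2 had too few) were lower in Bdf1/2-AID (84.3% of all genes), between −1.34 for VMA11 (the c′ proteolipid) and −2.59 for VMA9 (subunit e). Relative to the bulk of genes by TMM, only VMA9 passed (adjusted p = 0.0225), where 7.34% of genes were lower. VPH2, whose product works with Vma22, changed by −2.27.

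**Figure D2:**
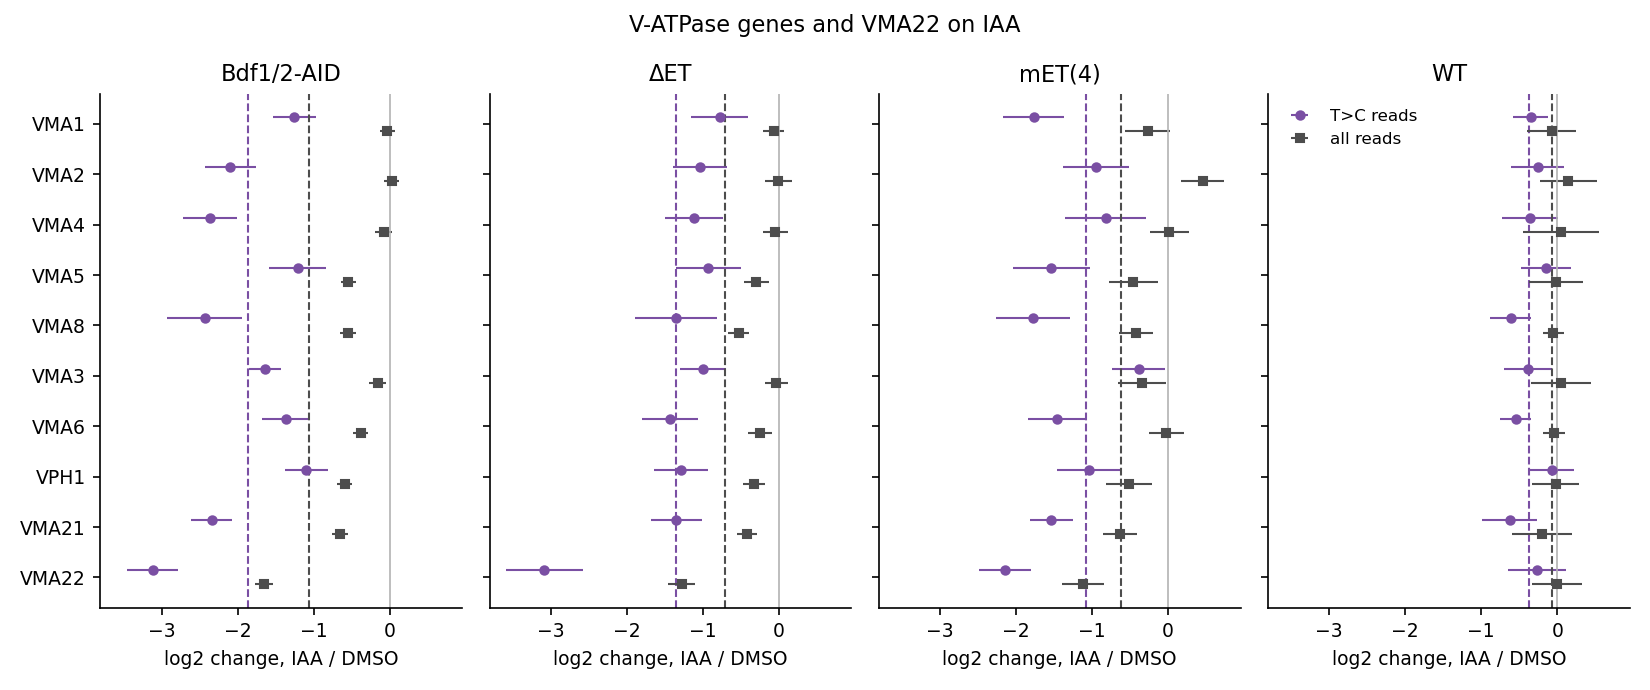
Log2 change of the 10 genes in IAA against DMSO in Bdf1/2-AID, ΔET, mET(4) and WT, from T>C reads and from all reads, with bars for the standard error of the fit and dashed lines for the median gene. VMA22 lies below the dashed line in Bdf1/2-AID, ΔET and mET(4) on both readouts, whereas VMA1, VMA2 and VMA4 lie above it on all reads in those strains.

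Total reads gave a different picture for the subunit genes. In Bdf1/2-AID, VMA2 had 463, 482 and 453 CPM in IAA and 422.4, 495.3 and 457 CPM in DMSO, and VMA1 212, 230 and 243 CPM in IAA and 251, 239 and 209.5 CPM in DMSO. Libraries of both treatments overlapped for these genes, and the log2 changes of VMA2 (0.02), VMA1 (−0.03), VMA4 (−0.08) and VMA3 (−0.16) did not pass the test. The genes lower were VMA22 (−1.65), VMA21 (−0.66), VPH1 (−0.59), VMA8 (−0.55), VMA5 (−0.54) and VMA6 (−0.38), 6 of 10, where 72.3% of all genes were lower and 5.34% higher. The median gene changed by −1.06, so that the 9 genes other than VMA22 were all above it. With TMM scaling these 9 were higher, against 30.4% of all genes, and VMA22 was lower (−0.71), against 33.7%. All 13 further V-ATPase genes were lower by library totals. With TMM scaling, 7 of them were higher and 4 (STV1, VPH2, PKR1 and RAV1) lower.

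**Figure D3:**
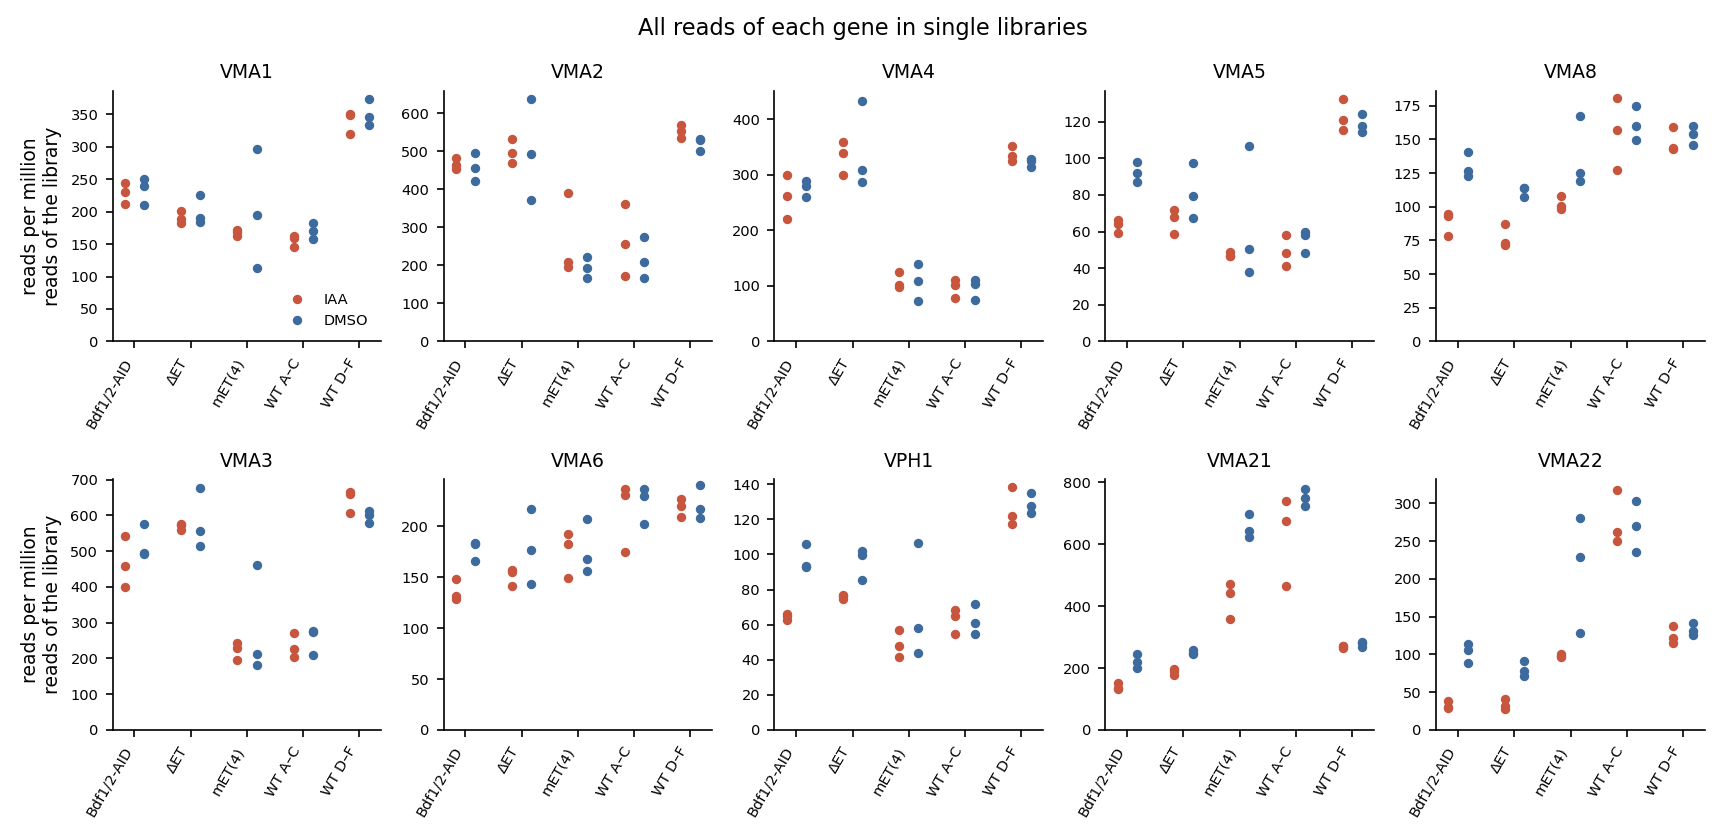
Total CPM of the 10 genes in each library of Bdf1/2-AID, ΔET and mET(4), and of WT replicates A–C and D–F, with IAA to the left of DMSO. VMA22 separates the treatments in Bdf1/2-AID and ΔET, VMA2 overlaps in both, and the WT replicates A–C and D–F differ in level for most of the genes.

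In ΔET, the other 9 genes were near the median gene, with a median log2 change of −1.11, against −1.35 for all genes. T>C reads of 8 of them were lower in IAA than in DMSO, where 68.2% of all genes were lower, and with TMM scaling none of the 9 passed (0 at an unadjusted p under 0.05, and 0 with DESeq2), where 2.39% of genes were lower. VMA6 (log2 −1.43, adjusted p = 0.000548), VMA21 (−1.35, adjusted p = 0.000426), VMA8 (−1.35) and VPH1 (−1.29, adjusted p = 0.00117) fell about as much as the median gene, by edgeR. VMA3 had 5.09, 6.34 and 4.61 T>C CPM in IAA and 8.37, 11.3 and 12.5 in DMSO (log2 −0.9995). VMA1, at 0.545, 2.68 and 2.20 T>C CPM in IAA and 3.61, 2.73 and 3.05 in DMSO, had 1 IAA library far below the others and did not pass (−0.78, adjusted p = 0.0526 by edgeR). VMA5 passed (−0.93, adjusted p = 0.0457 by edgeR), although its libraries overlapped, at 1.27, 1.14 and 0.826 T>C CPM in IAA and 2.47, 0.743 and 2.63 in DMSO. The 11 further V-ATPase genes tested were all lower. On total reads, VMA8 (−0.53) and VMA21 (−0.42) were lower, 2 of 9, where 60.5% of all genes were lower, and the median gene changed by −0.71. Without ΔET DMSO replicate B, 5 of 9 were lower, and without IAA replicate B 1 of 9. The share of all genes lower in those fits is not given here and may have moved as well.

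In mET(4), 7 of the 10 genes had fewer T>C reads in IAA than in DMSO, where 42.8% of all genes were lower. Beside VMA22 they were VMA8 (−1.78), VMA1 (−1.77), VMA21 (−1.54), VMA5 (−1.54), VMA6 (−1.46) and VPH1 (−1.05, adjusted p = 0.0404 by edgeR). VMA2 (−0.94, adjusted p = 0.0703), VMA4 (−0.82, adjusted p = 0.191) and VMA3 (−0.39, adjusted p = 0.348) did not pass by edgeR. VMA4 rests on 10, 2 and 14 reads in IAA. With TMM scaling, VMA22 alone passed (−1.18, adjusted p = 0.0319 by edgeR), where 0.638% of genes were lower. DMSO replicate A of mET(4) was high in VMA1 (297 CPM, against 195 and 114 in B and C), VMA5 (106 CPM, against 50.5 and 37.8) and VPH1 (107 CPM, against 58.2 and 44.0) and low in VMA22. Without it, 5 of the 10 genes were lower, where 29.8% of all genes were, and VMA22 changed by −2.33 (adjusted p = 1.03e-07 by edgeR). On total reads, VMA22 and VMA21 (−0.63, adjusted p = 0.0459 by edgeR) were lower, 2 of 10, where 33.2% of all genes were lower.

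Across the other strains, VMA22 was the gene of this set that passed most often. On T>C reads it was lower in IAA than in DMSO in 8 of the 22 strains other than ΔET. Besides Bdf1/2-AID and mET(4), these were ΔBD1/2 (−1.51, adjusted p = 0.00239), ΔB/BID (−1.38, adjusted p = 0.00112), ΔB (−1.37, adjusted p = 3.57e-05), mBD1/2 (−1.22, adjusted p = 0.00721), ΔNPS (−0.88, adjusted p = 0.0261) and ΔBID (−0.74, adjusted p = 0.0402) by edgeR. Changes of −1.24 in ΔBD2, −1.04 in mNPS/CPS, −0.87 in mET(2), −0.67 in ΔBD1 and −0.47 in mET(1) did not pass. With TMM scaling it was called in 2 of 22, Bdf1/2-AID and mET(4). On total reads VMA22 was lower in 7 of 22 strains, which besides Bdf1/2-AID and mET(4) were ΔB/BID (−0.92, where 50.3% of all genes were lower), ΔBD1/2 (−0.80, 51.3%), ΔB (−0.76, 23.9%), mBD1/2 (−0.67, 15.7%) and ΔNPS/CPS (−0.40, 22.9%). With TMM scaling it was lower in 4, which besides Bdf1/2-AID were ΔB/BID (8.44% of all genes), ΔBD1/2 (4.53%) and ΔB (0.38%). VMA22 lay below the median gene in 17 of 22 strains on T>C reads (median difference −0.37, range −1.26 to 0.23) and in 20 on total reads. It was the lowest of the 10 genes in 9 of 22 strains on T>C reads and in 15 on total reads. Such counts were not particular to VMA22 among the further V-ATPase genes. On T>C reads, VMA7 and PKR1 also lay below the median gene in 17 of 22 strains (median differences −0.11 and −0.14). VMA7 was also lower in 8 strains, but in 0 with TMM scaling. On total reads, VPH2 lay below the median gene in 20 and RAV1 in 19. FYV4, whose counts ran close to those of VMA22, was below the median gene in 20 of 22 strains on T>C reads. It was lower in 8 strains, and in 3 with TMM scaling. On total reads FYV4 was lower in 7 strains, and in 4 with TMM scaling. The calls of VMA22 were thus not particular to it beside FYV4.

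In the strains other than Bdf1/2-AID, ΔET and mET(4), the count of members called was as follows. With VMA22 included, 6 of 10 were lower in ΔB/BID (39.7% of all genes), 5 in ΔBD1/2 (33.7%), 4 in ΔB (36.3%), 4 in mBD1/2 (23.2%), 3 in ΔBID (7.98%), 2 in mNPS (5.82%) and 1 in ΔNPS (2.95%). These counts rest on the scaling. With size factors they were 2 in ΔB/BID (4.69% of all genes), 1 in ΔB (4.95%) and 0 in the other 5. With TMM scaling they were 0 in all 7 by edgeR and DESeq2, and of the 70 tests 8 were lower at an unadjusted p under 0.05. The share of all genes lower with TMM scaling was 0.858% in ΔB/BID, 0.439% in ΔBD1/2, 0.279% in ΔB, 0.0399% in mNPS, 0.0199% in mBD1/2 and 0% in ΔBID and ΔNPS. Single libraries moved some of these counts, to 1 in mBD1/2 (without IAA replicate C, DMSO replicate B or DMSO replicate C) and 2 without its DMSO replicate A, to 2 in ΔB (without IAA replicate A, DMSO replicate B or DMSO replicate C), to 3 in ΔB/BID (without IAA replicate B or C) and 2 without its DMSO replicate B, and in ΔBD1/2 to 2 without IAA replicate B and 3 without DMSO replicate A. Shares of all genes in these fits are not given, so that the moves may not be particular to the 10 genes. In ΔBID the genes lower were VMA22, VMA5 (−0.83) and VMA21 (−0.57), and in mNPS they were VMA5 (−1.13) and VMA3 (−0.57). None of the 10 passed by edgeR in the 12 remaining strains with a variant, and of the 120 tests 31 were lower at an unadjusted p under 0.05. The matching unadjusted share of all genes is not given, and the shares below are after adjustment. The median gene was lower in these strains too, from −0.68 in ΔNPS/CPS to −0.22 in mBD1, so that 31 is not read as an excess. With DESeq2, 1 gene passed, in mET(2). Few genes of any kind were lower there, 0% in ΔBD1, ΔIDRs, mCPS and mNPS/CPS, 0.0399% in mET(1), 0.0798% in mBD2, 0.199% in ΔBD2, 0.239% in pNPS/CPS, 0.339% in mBD1, 1.56% in ΔCPS, 2.55% in ΔNPS/CPS and 4.69% in mET(2). On total reads VMA1, whose product is the catalytic subunit, lay below the median gene in 0 of 22 strains, and VMA2 and VMA4 in 1 each. In WT 0 of 10 genes passed on T>C reads by edgeR or DESeq2 (2 were lower at an unadjusted p under 0.05), where 0% of all genes were lower. In the fit blocked on replicate letters, 3 of 10 were lower, as were 1152 of the 5014 genes tested.

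The change in Bdf1/2-AID was set against that in WT as an interaction of strain and treatment. T>C reads fell further in Bdf1/2-AID for VMA22 (difference −2.86 on the log2 scale, SE 0.68, adjusted p = 0.00265), VMA4 (−1.97, adjusted p = 0.0155), VMA8 (−1.81, adjusted p = 0.0104), VMA2 (−1.795, adjusted p = 0.0171), VMA21 (−1.68, adjusted p = 0.0267) and VMA3 (−1.26, adjusted p = 0.0383) by edgeR. These are 6 of 10, where 50.2% of all genes fell further. With TMM scaling 0 of 10 passed by edgeR (0 at an unadjusted p under 0.05), where 0.997% of genes fell further. On total reads with TMM scaling, 1 of the 10 genes, other than VMA22, had a higher change in Bdf1/2-AID than in WT, where 8.37% of genes did. By library totals, the difference for VMA22 on total reads was −1.66 (adjusted p = 0.0135 by edgeR), where 42.2% of genes fell further. For mET(4) against WT, 0 of 10 passed (5 at an unadjusted p under 0.05), where 0.199% of genes fell further, and VMA22 was at −1.88 (adjusted p = 0.108 by edgeR). The fits against WT held no term for replicates, so that the spread between WT A–C and D–F stayed in their error. A count of 0 there can therefore miss a difference. For ΔET against Bdf1/2-AID, 0 of the other 9 passed by edgeR, as did 0% of all genes in either direction. At an unadjusted p under 0.05, 3 of these 9 fell less in ΔET and 0 fell further.

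The comparison of each strain with WT in IAA shares the 6 WT libraries, and the levels of the 10 genes differ between WT replicates A–C and D–F. In DMSO, VMA21 had 752 ± 26.7 CPM in A–C and 277.6 ± 8.05 in D–F, VMA22 269.4 ± 33.8 and 133 ± 7.70, VMA1 169.9 and 351, and VMA4 96.5 and 322.5 (SD, n = 3 each). VMA8 (162 and 153 CPM) and VMA6 (223 and 222 CPM) were alike in both sets. T>C reads of VMA22 were lower than in WT by 3.86 on the log2 scale in Bdf1/2-AID (adjusted p = 5.42e-06), and the change was −2.18 in mET(4) (adjusted p = 0.00135), by edgeR. The difference was −4.45 against WT A–C alone and −2.78 against D–F alone in Bdf1/2-AID, and −2.77 and −1.10 in mET(4). In ΔET it was −5.06, given without a test. All 10 genes were lower in Bdf1/2-AID (75.2% of all genes), 10 in mET(4) (67.0%), 7 of the other 9 in ΔET (78.7%), 9 of 10 in mNPS/CPS (84.4%), 9 in ΔCPS (79.5%) and 10 in ΔNPS/CPS (82.8%). Against WT A–C alone, the nearer set in composition, 6 were lower in mET(4), where 49.5% of all genes were. VMA22 was also lower than in WT in ΔB/BID (−2.94, where 21.6% of all genes were lower), ΔBD1/2 (−2.69, 19.4%), ΔBD2 (−2.45, 8.66%), ΔBD1 (−2.03, 2.73%), ΔB (−2.02, 4.65%), ΔBID (−1.94, 1.18%) and mCPS (−1.76, 22.8%). Against WT D–F alone the changes in these strains were smaller, and those of ΔBD1 (−0.97, adjusted p = 0.0569), ΔBID (−0.84, adjusted p = 0.0551) and mCPS (−0.69, adjusted p = 0.107) did not pass by edgeR, whereas against A–C alone all 7 passed. With TMM scaling VMA22 was lower than in WT in Bdf1/2-AID (−2.24, where 8.8% of all genes were lower), ΔB/BID (−2.39, 4.19%), ΔBD1/2 (−2.19, 3.83%) and ΔBD2 (−2.08, 0.678%), and it did not pass in the other strains tested. With size factors it did not pass in mET(4), ΔBD1, ΔB, ΔBID or mCPS. A gap to WT in the mean level of VMA22 was present in DMSO as well. WT had 13.3 T>C CPM there (6.40 to 18.6 over its libraries). The mean was 3.73 in ΔB/BID, 4.91 in ΔBD1/2, 4.84 in ΔBD2, 4.29 in ΔBD1, 7.07 in ΔB, 4.92 in ΔBID and 3.96 in mCPS. It was 2.73 in ΔET, 6.74 in Bdf1/2-AID and 10.9 in mET(4). Libraries of ΔB, Bdf1/2-AID and mET(4) overlapped those of WT. The differences from WT in IAA include this gap, whose part was not tested. When ΔET was set against Bdf1/2-AID in IAA, 0 of the other 9 genes differed on T>C reads by edgeR or DESeq2 (1 at an unadjusted p under 0.05), where 1.26% of genes were lower and 0.499% higher. VMA22 changed by −1.21 on T>C reads and 0.02 on total reads, without a test.

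In DMSO, with endogenous Bdf1/2 present, the genes were compared with Bdf1/2-AID to see the effect of a variant beside the endogenous proteins. T>C reads of 9 of 10 genes were lower in mNPS/CPS (62.8% of all genes), 9 in ΔCPS (76.3%, with VMA6 at −0.12 as the exception) and 10 in ΔNPS/CPS (68.3%), and none was lower with TMM scaling in any of the 3, where 0.179%, 2.29% and 2.09% of all genes were lower in mNPS/CPS, ΔCPS and ΔNPS/CPS. VMA6 was higher in ΔCPS with TMM scaling (1.07, adjusted p = 0.00138 by edgeR), where 5.09% of all genes were. At an unadjusted p under 0.05, 0, 0 and 1 of the 10 were lower with TMM scaling in these strains. The count in mNPS/CPS fell to between 1 and 5 when any single library other than its replicate B was left out. For those fits the share of all genes lower is not given and may have fallen as well. VMA22 changed by −1.60 in ΔCPS (adjusted p = 6.56e-09), −1.55 in mNPS/CPS (adjusted p = 0.00371) and −0.999 in ΔNPS/CPS (adjusted p = 0.00180), by edgeR. On total reads it was higher in ΔNPS/CPS (0.85, adjusted p = 1.12e-06 by edgeR), where 42.3% of all genes were, and changed by 0.32 in mNPS/CPS and 0.10 in ΔCPS. Among the other variants except ΔET, VMA22 was lower on T>C reads by library totals in ΔB/BID alone (1.99% of all genes). It was higher in ΔNPS (30.7%), mBD1 (46.1%), mBD2 (41.2%) and mBD1/2 (17.1%). With TMM scaling it was lower in ΔBD1 (4.03%), ΔB/BID (3.13%), ΔBID (9.63%) and ΔIDRs (7.02%), and higher in mBD1/2 (14%) and mET(4) (11.4%). In ΔET, 0 of the other 9 genes differed from Bdf1/2-AID in DMSO by edgeR or DESeq2 (2 were lower at an unadjusted p under 0.05), where 6.16% of genes were lower, and VMA22 changed by −1.25, without a test.

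After FYV4, the genes whose total CPM was most like that of VMA22 over the 46 groups were FMP32 (r = 0.951), SDC1 (0.948), LRP1 (0.946) and CSN9 (0.945). The points share strains, libraries and their differences in composition, so that r is a description. Among the V-ATPase genes it was 0.800 for VMA21, 0.787 for VPH2, 0.836 for SKP1 and 0.597 for VMA8, and −0.23 for VMA2, −0.35 for VMA1 and −0.38 for VMA4. The assembly factors thus differed among themselves, with PKR1 at −0.083 and VOA1 at 0.442, and SKP1, which is not an assembly factor, had the highest r of the V-ATPase genes.

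The 250 bases before the start of the 10 genes were searched on both strands for motifs of the general regulatory factors Reb1 and Abf1. The Rpn4 motif and TATAAA (the TATA box) were searched for as well. The Reb1 motif TTACCCG was found before 4 of the 10 genes (VMA2, VMA5, VMA8 and VMA3) and in 6.86% of 6418 such windows. The Abf1 motif (TCA and ACG with any 6 bases between them) was found before VMA4 and VMA6 (12.7% of windows), and the Rpn4 motif GGTGGCAAA before none of them (1.08%). TATAAA was found before 3 of the 10 (43.6% of windows), and VMA22 held only this motif, on the opposite strand, 110 to 105 bases before its start. VMA22, VMA1, VPH1 and VMA21 held neither a Reb1 nor an Abf1 motif, and these include the gene that fell furthest in Bdf1/2-AID (VMA22) and the gene that fell least (VPH1). The windows that hold such a motif are printed to show where the match lies in the other 6 genes. Each is written in the direction of its gene, and capitals mark the motif.

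VMA2, Reb1, chrII:492966-493026, minus strand: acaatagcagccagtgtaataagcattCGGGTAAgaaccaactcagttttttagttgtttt
VMA5, Reb1, chrXI:284788-284848, plus strand: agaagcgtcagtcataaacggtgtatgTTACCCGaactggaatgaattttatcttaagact
VMA8, Reb1, chrV:58209-58269, plus strand: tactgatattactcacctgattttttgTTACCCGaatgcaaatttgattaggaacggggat
VMA3, Reb1, chrV:100525-100585, plus strand: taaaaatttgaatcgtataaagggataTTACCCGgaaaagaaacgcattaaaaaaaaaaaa
VMA4, Abf1, chrXV:943481-943546, plus strand: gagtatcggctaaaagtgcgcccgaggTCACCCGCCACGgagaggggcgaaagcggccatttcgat
VMA6, Abf1, chrXII:1028007-1028072, minus strand: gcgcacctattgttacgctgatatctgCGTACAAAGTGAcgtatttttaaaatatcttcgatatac

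The motif lies 215 to 209 bases before the start of VMA5, 142 to 136 before VMA8, 217 to 211 before VMA3 and, as the reverse complement CGGGTAA, 177 to 171 before VMA2. The Abf1 motif lies 148 to 137 bases before VMA4 and, on the opposite strand, 152 to 141 before VMA6. The 4 genes with a Reb1 motif lay on both sides of the median gene in Bdf1/2-AID, at 0.65 for VMA5, 0.22 for VMA3, −0.24 for VMA2 and −0.58 for VMA8 on T>C reads. A match is a string of letters and was not measured as a binding site here. Counted regions of 7 of the 10 genes overlap another gene, for example VMA21 with VOA1 by 344 bases on the opposite strand, so that their reads cannot be told apart unless the counting used strand.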

How the data were processed

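SLAM-seq counts of 144 libraries were analyzed, with strain, treatment and replicate from the sample labels. The authors trimmed reads with fastp 0.23.2, and aligned and counted them with SLAM-DUNK 0.4.3 on 1 region per gene (R64). They deposited, per gene, raw counts of all reads and of T>C reads, without normalization. The deposited coverage of Ts (a signal summed over reads) was used only to compare VMA22 with FYV4. Counts were scaled by library totals of all reads, as in the authors' normalization, which shows changes common to all genes. Genes with a mean of at least 5 reads per library were kept, 5014 for T>C reads and 6045 for total reads, and all 10 members passed. Each of 68 comparisons was fitted on the libraries of its 2 groups with edgeR 4.0.16 (quasi-likelihood test, R 4.3.3) and adjusted by Benjamini-Hochberg over all genes, with a threshold of 0.05. The tests were checked on simulated counts. The interactions were fitted on the 4 groups involved.

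Size factors, TMM factors, other gene filters, DESeq2 1.42.0, 1 fit over all groups, a replicate block and single libraries left out were tried as alternatives. TMM factors of T>C reads, the Ts covered per read and the WT sets A–C and D–F for further strains were added after the data were seen. The genes named are the 10 members, 13 further V-ATPase genes, genes overlapping VMA22, the 5 most like it, and BDF1. Members and lists were chosen with earlier results of these data known. Replicates were separate cultures. Replicate letters are shared between treatments, and the correlation of deviations of same-lettered libraries was 0.212 to 0.499 over the 6 WT pairs. In no other comparison were all pairs above 0.1. Depth limits T>C reads most, since VMA22 had 4 in each ΔET IAA library. Sequences were read from the RefSeq genome of the same build.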

Additional observations from a re-analysis of the deposited data

Results flagged for a closer look

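IAA and DMSO differed by more in Bdf1/2-AID than in WT for 6 of the 10 genes on T>C reads and for VMA22 on total reads, tested as an interaction with edgeR. On T>C reads the differences, as Bdf1/2-AID minus WT on the log2 scale, were −2.86 for VMA22, −1.97 for VMA4, −1.81 for VMA8, −1.795 for VMA2, −1.68 for VMA21 and −1.26 for VMA3, where 50.2% of all genes fell further in Bdf1/2-AID. For VMA22 on total reads the difference was −1.66, where 42.2% of genes fell further. With TMM scaling, none of them passed, and VMA22 was at −1.58 on T>C reads (adjusted p = 0.242 by edgeR) and −0.84 on total reads (adjusted p = 0.404 by edgeR). On total reads with TMM scaling, 1 of the 10 genes, other than VMA22, had a higher change in Bdf1/2-AID than in WT, where 8.37% of genes did. WT replicates A–C stand apart from D–F, and their part in these differences was not tested. No WT group of 6 libraries had a value far from the others in any of the 40 groups of gene, treatment and readout examined. This check looks for a single value at either end, so that it could hardly flag sets A–C and D–F that stand apart.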

How the results depend on the processing

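Scaling was the choice that moved most values. Library totals keep a change common to all genes, and TMM factors remove it by construction. Size factors of total reads remove a change common to total reads, but not one seen only in T>C reads. With them, the median gene on T>C reads in Bdf1/2-AID still changed by −0.80 in IAA against DMSO. The fall of VMA22 on T>C reads in Bdf1/2-AID and mET(4) passed under all of the scalings. With size factors of total reads, the count of genes lower on T>C reads in IAA against DMSO was 6 in Bdf1/2-AID (35.9% of all genes), 0 of 9 in ΔET (6.68%) and 1 in mET(4) (3.15%). With TMM factors it was 1 (7.34%), 0 (2.39%) and 1 (0.638%). On total reads in Bdf1/2-AID, 1 gene was lower and 9 higher with size factors (24.9% and 34.5% of all genes) and with TMM factors (33.7% and 30.4%). In ΔET, 0 of 9 were lower (13.2% of all genes with size factors, 18.3% with TMM factors), and in mET(4) 0 were (0.397% and 0.298%). Of the 9 in ΔET, 7 were higher with size factors (23.1% of all genes) and 5 with TMM factors (19.6%). VMA22 on total reads in mET(4) was −0.55 with size factors and −0.59 with TMM factors and did not pass. Against WT in IAA, the counts lower on T>C reads with size factors were 3 in Bdf1/2-AID (26.9% of all genes), 2 of 9 in ΔET (38%) and 0 in mET(4) (2.89%). With TMM factors they were 2 (8.8%), 0 (9.39%) and 0 (1.26%). In mNPS/CPS, ΔCPS and ΔNPS/CPS they were 9 (83.2%), 9 (79.4%) and 10 (82.4%) with size factors, and 0 with TMM factors (0.0598%, 0.499% and 0.16%). Against Bdf1/2-AID in DMSO, these 3 strains had 9 (75.7%), 9 (80.6%) and 10 (82.6%) with size factors, and 0 with TMM factors (0.179%, 2.29% and 2.09%). Signs turned with TMM factors on T>C reads in Bdf1/2-AID for VMA1 (0.45), VMA5 (0.48), VMA3 (0.077), VMA6 (0.35) and VPH1 (0.61), for VMA22 in WT (0.13), and for VMA22 in ΔNPS/CPS against Bdf1/2-AID (0.23). On total reads in Bdf1/2-AID they turned with size factors for VMA1 (1.05), VMA4 (0.99), VMA5 (0.54), VMA8 (0.53), VMA3 (0.91), VMA6 (0.70), VPH1 (0.48) and VMA21 (0.42), and with TMM factors for VMA1 (0.91), VMA4 (0.86), VMA5 (0.40), VMA8 (0.39), VMA3 (0.78), VMA6 (0.56), VPH1 (0.35) and VMA21 (0.29). VMA22 in ΔET was also described by the difference between groups in the mean of the log2 levels of single libraries. This was −4.83 on T>C reads and −2.50 on total reads against WT in IAA, and −3.06 and −1.29 against DMSO. On T>C reads it was −3.08 (TMM factors), −3.28 (scaled to the other 9 genes) and −1.23 (Bdf1/2-AID in place of WT) in IAA, and −2.34 (size factors), −1.78 (TMM factors) and −1.94 (the other 9 genes) against DMSO. On total reads it was −1.58 (size factors), −1.64 (TMM factors) and 0.016 (Bdf1/2-AID in place of WT) in IAA, and −0.57 (size factors) and −0.66 (TMM factors) against DMSO. With 1 fit over all groups, 4 genes were lower on total reads in mET(4) and 1 of 9 in ΔET, without the share of all genes beside them. Against WT A–C alone 6 were lower in mET(4). The cause was not tested.

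Same-lettered WT libraries deviated together, and with the replicate block 3 genes were lower in WT. With the replicate block 1 gene was lower on total reads in mET(4), and it changed no other call listed above beyond 1.5 times. When single libraries were left out, VMA22 ranged from −1.38 to −0.86 on total reads in mET(4), where the count of genes ran from 0 to 3, and in ΔET it ran from 1 to 5. Against Bdf1/2-AID in DMSO, the count ran from 1 to 10 in mNPS/CPS and from 6 to 10 in ΔNPS/CPS. These ranges are given without the share of all genes in each fit, which may have moved as well. On total reads in Bdf1/2-AID, VMA1 ran from −0.099 to 0.026, VMA2 from −0.031 to 0.085 and VMA4 from −0.19 to 0.027. VMA22 kept its call on T>C reads in Bdf1/2-AID, mET(4), mBD1/2, ΔB, ΔB/BID and ΔBD1/2 with any single library left out, and leaving out was not run for ΔNPS and ΔBID. Depth limits the T>C values of ΔET in IAA, where VMA22 rests on 4 reads per library.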
